A study of Mus musculus with 12 samples.

Results

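Sialyltransferases are the Golgi enzymes that cap the sugar chains of glycoproteins and glycolipids with sialic acid. The 10 genes described here were chosen by name from the gene count table: St3gal1, St3gal2, St3gal3, St3gal4, St3gal5, St3gal6, St6gal1, St6galnac3, St6galnac4 and St6galnac6. They are 10 of 56941 genes in that table, each symbol matched 1 gene ID, and all 10 passed the expression filter that left 18657 genes for testing. The RNA came from tumour-infiltrating CD8+ T cells of Panc02 tumours, which are grown from a mouse pancreatic cancer line. The mice were wild type C57BL/6J animals, and the sort kept viable (DAPI-), CD45.2+, CD8+ cells either positive or negative for asGM1, the glycolipid asialo-GM1. The 4 groups, with 3 libraries each, were anti-PD-1 asGM1-positive, anti-PD-1 asGM1-negative, isotype asGM1-positive and isotype asGM1-negative cells. Both populations came from tumours under the same antibody, anti-PD-1 or isotype ctrl, and neither dose nor timing is stated in the sources used here. Nor is it stated whether the 3 libraries of a group came from separate mice, so p-values reflect the variation among libraries only, part or all of which may be technical.

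Each sialyltransferase uses CMP-sialic acid as its donor and is named for the bond it makes and the sugar it attaches to. ST3Gal enzymes place an alpha2,3-linked sialic acid on galactose, ST6Gal enzymes an alpha2,6-linked one on galactose, and ST6GalNAc enzymes an alpha2,6-linked one on N-acetylgalactosamine. In T cells, sialylation changes as cells are activated, and it covers or exposes galactose-ended chains. Asialo-GM1 is itself such a galactose-ended chain without sialic acid: it is built when the first sialylation of lactosylceramide is bypassed, and ST3Gal enzymes can sialylate its end.

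The libraries held 58.1 to 73.2 M counts each (M is the SI prefix mega), and the lowest count of any sialyltransferase in any library was 53. Levels are given as CPM, counts per M of a library's total after TMM scaling, with SD over the 3 libraries of a group. The 8 CD8+ T cell markers, Cd8a and Cd3e among them, were present in every group and summed to between 14693 and 21713 CPM. These sums were highest in isotype asGM1-positive libraries, at 18329 to 21713 CPM, and at most 16927 CPM in any other library. Gzmb, 1 of the 8, was at 6716 to 9613 CPM in isotype asGM1-positive and 3904 to 5119 CPM in isotype asGM1-negative libraries. Other marker lists were not level between the groups either, as the plot of marker sums shows. The 8 naive T cell markers summed to 437 to 506 CPM in anti-PD-1 asGM1-positive libraries and 719 to 751 CPM in anti-PD-1 asGM1-negative libraries. Under isotype they summed to 176 to 199 CPM in asGM1-positive and 430 to 572 CPM in asGM1-negative libraries. A heat shock gene also differed in level: Hspa1a was at 22.5 to 146 CPM in anti-PD-1 asGM1-positive and 30.9 to 151 CPM in anti-PD-1 asGM1-negative libraries, against 343 to 440 CPM in isotype asGM1-positive and 188 to 355 CPM in isotype asGM1-negative libraries. Replicate 2 stood apart under anti-PD-1 in both populations, at 146 and 151 CPM of Hspa1a, and the calls that ended without it are named below with their values. In bulk RNA, fewer cells of a type and less RNA per cell cannot be told apart.

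**Figure D1:**
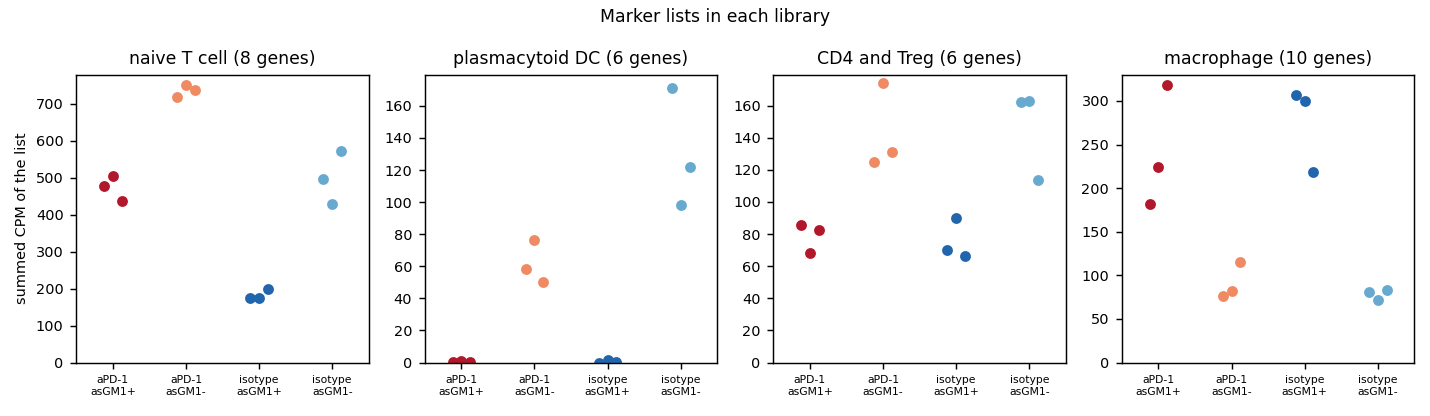
Summed CPM of 4 marker lists in each library (points, one per library; anti-PD-1 groups left, isotype groups right, asGM1-positive left of asGM1-negative). Naive T cell, plasmacytoid dendritic cell (6 genes, without Bst2, Ly6c2, Tcf4 and Runx2) and CD4 and regulatory T cell sums are lower, and macrophage sums higher, in asGM1-positive than in asGM1-negative libraries of the same treatment.

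Between populations, some sialyltransferases had less RNA in asGM1-positive cells, and the others did not pass in the model without a block. Averaged over treatments, 4 of 10 were lower in asGM1-positive than in asGM1-negative cells, and 0 of 10 were higher (edgeR, Benjamini-Hochberg adjusted p under 0.05; 5 of 10 had an unadjusted p under 0.05). With libraries of equal number and treatment paired as a block, the same 4 were lower and St3gal6 was higher. Over all genes tested, without the block, 2.04% were lower and 1.55% were higher, and 3030 of 18657 had an unadjusted p under 0.05. The 4 were St6gal1 (5.0-fold lower), St3gal2 (2.51-fold), St6galnac3 (1.98-fold) and St3gal1 (1.51-fold). They are the ST6Gal enzyme of N-glycans and 3 enzymes whose known acceptors include core 1 O-glycans and gangliosides. These acceptors do not set the 4 genes apart. St6galnac4, also an enzyme of core 1 chains, and St6galnac6, also one of gangliosides, did not pass (averaged log2 fold changes of 0.02 and -0.09). The median log2 fold change of the 10 was -0.08, beside -0.01 for all genes. Between treatments, 4 of 10 were higher under anti-PD-1 than under isotype and 2 of 10 were lower, averaged over populations, beside 9.12% and 9.02% of all genes. The higher ones were St6galnac3, St3gal1, St6galnac6 and St6galnac4, and the lower ones St6gal1 and St3gal5. This average over populations counts paired libraries as separate, so its p-values may be too small.

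**Figure D2:**
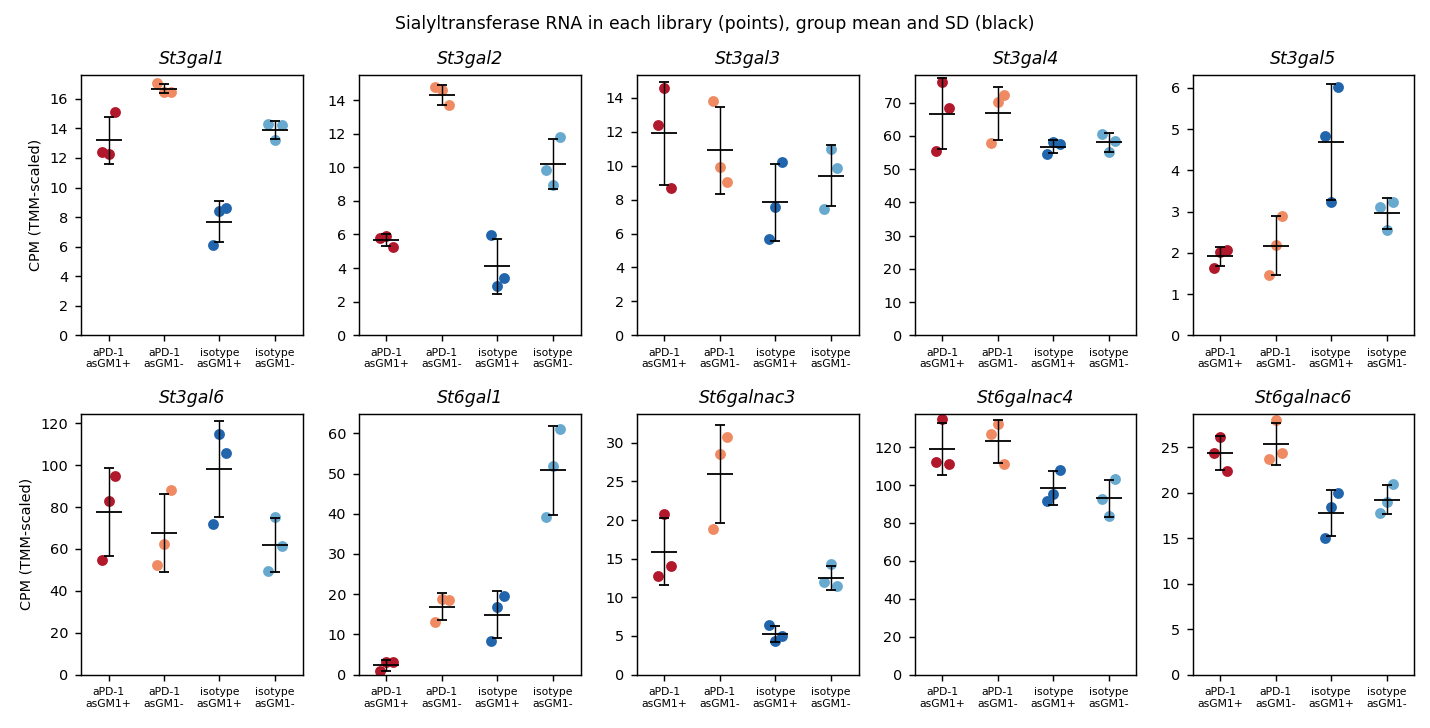
CPM of the 10 sialyltransferases in each of the 12 libraries (points), with the group mean and SD in black; panels have separate linear axes from 0. St6gal1 is lowest in the 3 anti-PD-1 asGM1-positive libraries, at 0.762 to 3.14 CPM, and highest in the 3 isotype asGM1-negative libraries, at 39.3 to 61.2 CPM.

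The order of the 10 genes by level was set on CPM per kilobase (kb) of exon, with exon lengths from GENCODE for GRCm38. St3gal4, an enzyme of type 2 chains on N-glycans and of selectin ligands, had the highest mean level in all 4 groups, at 22.8 ± 3.64, 22.9 ± 2.71, 19.4 ± 0.680 and 19.8 ± 0.929 CPM per kb in anti-PD-1 asGM1-positive, anti-PD-1 asGM1-negative, isotype asGM1-positive and isotype asGM1-negative cells. Its libraries overlapped those of the gene in the next place in every group but isotype asGM1-negative cells. St6galnac4 had group means of 14.3 to 19.0 CPM per kb and St3gal6 of 10 to 15.9 CPM per kb, and these genes held places 2 and 3 in every group but isotype asGM1-negative cells, where St3gal6 was at place 4. They overlapped with each other under isotype in asGM1-positive cells. St6galnac6 had group means of 3.70 to 5.26 CPM per kb and St3gal3 of 2.83 to 4.31 CPM per kb. St3gal1, St3gal2, St6galnac3 and St3gal5 had group means between 0.584 and 2.89 CPM per kb. In isotype asGM1-positive cells the one pair of neighbours in the order that did not overlap was St6galnac4 over St6galnac6. The pairs of neighbours without overlap numbered 5 of 9 in anti-PD-1 asGM1-positive, 4 in anti-PD-1 asGM1-negative and 6 in isotype asGM1-negative cells.

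St6gal1 was the gene whose place in that order moved most. It ranked 10 of 10 in anti-PD-1 asGM1-positive cells (0.470 ± 0.273 CPM per kb) and 6 in anti-PD-1 asGM1-negative cells (3.44 ± 0.663). It ranked 5 in isotype asGM1-positive cells (3.04 ± 1.17) and 3 in isotype asGM1-negative cells (10.3 ± 2.23), where its libraries overlapped those of St3gal6 in the next place. Its libraries overlapped those of neighbours in the other groups too: St3gal5 in anti-PD-1 asGM1-positive cells, and St3gal3 and St6galnac3 in anti-PD-1 asGM1-negative cells. In isotype asGM1-positive cells the neighbours were St6galnac6 and St3gal3, and both overlapped it. As a share of the per-kb sum over the 10 genes, St6gal1 made up 0.653 ± 0.342% in anti-PD-1 asGM1-positive, 4.59 ± 0.598% in anti-PD-1 asGM1-negative, 4.62 ± 1.37% in isotype asGM1-positive and 15.0 ± 2.28% in isotype asGM1-negative cells. The summed level of all 10 overlapped between the groups, at 69.2 ± 9.09, 74.5 ± 5.19, 64.3 ± 7.43 and 68.5 ± 4.59 CPM per kb in the same order. These shares describe RNA and not enzyme or sialic acid.

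**Figure D3:**
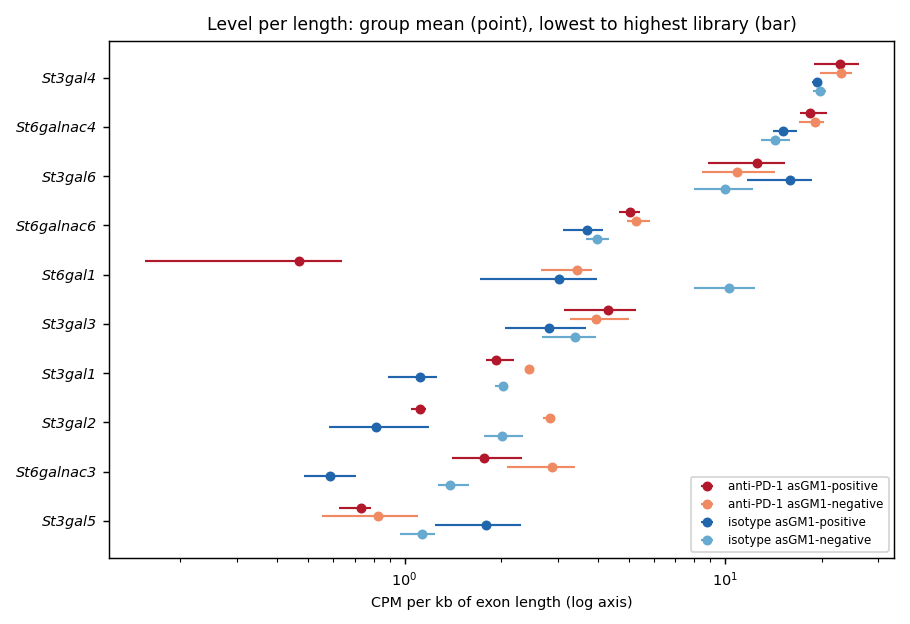
Level per exon length of the 10 genes (CPM per kb, log axis): points are group means and bars run from the lowest to the highest of 3 libraries. St3gal4 is highest in all 4 groups, and St6gal1 spans the widest range, with group means between 0.470 and 10.3 CPM per kb.

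St6gal1 encodes the enzyme that adds alpha2,6-linked sialic acid to the galactose ends of N-glycans, the structure that the lectin CD22 binds. In the files it is ENSMUSG00000022885, on chromosome 16 in GENCODE. It had 0.762, 3.14 and 3.02 CPM in the anti-PD-1 asGM1-positive libraries, against 13.1, 18.9 and 18.6 CPM in the anti-PD-1 asGM1-negative libraries. It had 8.44, 16.8 and 19.5 CPM in the isotype asGM1-positive libraries, against 39.3, 51.9 and 61.2 CPM in the isotype asGM1-negative libraries. Within each treatment every asGM1-positive library lay below every asGM1-negative library. The anti-PD-1 asGM1-negative and isotype asGM1-positive libraries overlapped. B cells are also known for St6gal1, and the 5 B cell markers summed to 1.32 to 2.42 CPM in anti-PD-1 asGM1-positive, 2.96 to 5.85 CPM in anti-PD-1 asGM1-negative, 2.05 to 3.21 CPM in isotype asGM1-positive and 6.34 to 7.16 CPM in isotype asGM1-negative libraries. Ms4a1, a defining one, was at 0 in all 12 libraries. The part of B cells in the St6gal1 difference was not tested.

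The population difference of St6gal1 was a log2 fold change of -2.88 ± 0.46 (SE) under anti-PD-1 (edgeR adjusted p = 0.0124) and -1.77 ± 0.43 under isotype, which did not pass (adjusted p = 0.0813). The replicate numbers pair the populations within a treatment, and with the pair as a block the isotype difference was -1.83 and passed (edgeR adjusted p = 0.0101). It also passed without a block in DESeq2 (adjusted p = 9.81e-04) and limma voom (0.0156). Of 13 libraries or library pairs left out in turn, it passed in edgeR without 1, anti-PD-1 asGM1-positive replicate 1 (adjusted p = 0.0163). The log2 ratios of the 3 pairs were -4.11, -2.59 and -2.63 under anti-PD-1 and -2.22, -1.62 and -1.65 under isotype. Averaged over treatments it was -2.32 ± 0.32 (edgeR adjusted p = 0.00213), past the threshold under every alternative tried. Without anti-PD-1 replicate 2 of both populations the anti-PD-1 difference was -3.08 (edgeR adjusted p = 0.108) and so ended as a call. Leaving out asGM1-negative replicate 2 alone also ended it (adjusted p = 0.0545).

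RefSeq gives St6gal1 3 start sites with a window in GRCm38.p6. The windows, 250 bases before to 50 after each start, are printed 5′ to 3′ because St6gal1 had the largest differences of the 10 genes. Capitals mark a match to one of 6 searched motifs, on either strand. The first start lies in chr16:23224490-23224789, the second in chr16:23225771-23226070 and the third in chr16:23290220-23290519, all on the plus strand.
St6gal1 start 1: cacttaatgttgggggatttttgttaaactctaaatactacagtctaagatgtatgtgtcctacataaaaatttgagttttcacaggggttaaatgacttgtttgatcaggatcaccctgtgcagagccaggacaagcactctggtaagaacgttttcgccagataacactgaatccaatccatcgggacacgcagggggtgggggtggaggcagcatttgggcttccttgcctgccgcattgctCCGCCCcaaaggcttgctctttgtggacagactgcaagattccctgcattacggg
St6gal1 start 2: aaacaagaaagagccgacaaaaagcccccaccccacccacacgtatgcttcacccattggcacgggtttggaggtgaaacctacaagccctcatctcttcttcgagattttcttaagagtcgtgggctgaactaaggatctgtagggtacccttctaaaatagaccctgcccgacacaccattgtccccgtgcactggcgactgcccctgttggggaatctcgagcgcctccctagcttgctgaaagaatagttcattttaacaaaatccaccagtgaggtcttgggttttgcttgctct
St6gal1 start 3: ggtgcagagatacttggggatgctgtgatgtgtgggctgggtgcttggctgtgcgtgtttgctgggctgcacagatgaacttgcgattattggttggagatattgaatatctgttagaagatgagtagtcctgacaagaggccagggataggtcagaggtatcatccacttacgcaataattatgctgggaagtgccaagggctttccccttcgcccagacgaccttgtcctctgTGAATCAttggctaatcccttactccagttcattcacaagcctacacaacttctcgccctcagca

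The motifs searched were GGGCGG (KLF/SP), CTTTGA (TCF/LEF), CGGAAG (ETS), TGTGGT (RUNX), TGANTCA (AP-1) and TGTTTAC (FOXO). The capitals in start 1 are a KLF/SP match on the minus strand that begins 5 bases before the start (position -5), and those in start 3 are an AP-1 match at position -15. Start 2 held none of the 6. Among 32851 windows of the same length, 35.7% held the KLF/SP letters, 7.81% the AP-1 letters, 16% TCF/LEF, 16.9% ETS, 16.8% RUNX and 3.65% FOXO. The 3 windows held 7, 10 and 6 CpG dinucleotides, beside a median of 7 over all windows. The counts are per gene, so which start the RNA came from cannot be read from them.

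St3gal1 and St3gal2 both sialylate the galactose of core 1 chains (Gal-GalNAc), St3gal1 mainly on O-glycans and St3gal2 also on gangliosides, including the end of asialo-GM1. St3gal2 had 5.81, 5.90 and 5.27 CPM in anti-PD-1 asGM1-positive libraries, against 14.8, 14.6 and 13.7 CPM in anti-PD-1 asGM1-negative libraries. It had 5.99, 2.93 and 3.40 CPM in isotype asGM1-positive libraries, against 9.83, 8.94 and 11.8 CPM in isotype asGM1-negative libraries. The populations did not overlap under either treatment, and the fold was much alike in both: -1.34 ± 0.24 on the log2 scale under anti-PD-1 (edgeR adjusted p = 0.0213) and -1.31 ± 0.24 under isotype (adjusted p = 0.0217). Without anti-PD-1 replicate 2 of both populations the anti-PD-1 difference was -1.37 and did not pass (edgeR adjusted p = 0.193). The isotype difference, which shares its spread estimate with those libraries, was then -1.32 and did not pass either (adjusted p = 0.0574). Averaged over treatments, it was -1.33 ± 0.17 (edgeR adjusted p = 0.00150). St3gal1 had 12.4, 12.3 and 15.1 CPM in anti-PD-1 asGM1-positive libraries, against 17.1, 16.5 and 16.5 CPM in anti-PD-1 asGM1-negative libraries. It had 6.09, 8.41 and 8.61 CPM in isotype asGM1-positive libraries, against 14.3, 13.2 and 14.2 CPM in isotype asGM1-negative libraries. These groups did not overlap either, but the difference passed under isotype (-0.85 ± 0.15, edgeR adjusted p = 0.0217) and not under anti-PD-1 (-0.34 ± 0.15, adjusted p = 0.441). Averaged, it was -0.59 ± 0.11 (edgeR adjusted p = 0.0112). The averaged and the isotype call ended without anti-PD-1 replicate 2 of both populations (-0.58 and -0.86, edgeR adjusted p = 0.0696 and 0.0509).

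The third enzyme of core 1 chains that differed was St6galnac3, which adds sialic acid to the GalNAc of chains that already carry an alpha2,3-linked one, on O-glycans and on gangliosides of the alpha series. It had 12.7, 20.8 and 14.1 CPM in anti-PD-1 asGM1-positive libraries, against 18.8, 28.6 and 30.7 CPM in anti-PD-1 asGM1-negative libraries. It had 6.36, 4.36 and 5.02 CPM in isotype asGM1-positive libraries, against 12, 14.3 and 11.4 CPM in isotype asGM1-negative libraries. The populations did not overlap under isotype (-1.26 ± 0.24 on the log2 scale, edgeR adjusted p = 0.0283) and overlapped under anti-PD-1, where the difference of -0.71 ± 0.23 did not pass (adjusted p = 0.214). In all 6 pairs the asGM1-positive library was the lower one, and the averaged difference was -0.99 ± 0.17 (edgeR adjusted p = 0.00742). Its promoter window, shown beside those of St6gal1 because the genes moved together between populations and in opposite directions between treatments, lies in chr3:153725084-153725383 on the minus strand of GRCm38.p6 (RefSeq). The capitals mark its match to the KLF/SP motif, which begins at position -86.
St6galnac3: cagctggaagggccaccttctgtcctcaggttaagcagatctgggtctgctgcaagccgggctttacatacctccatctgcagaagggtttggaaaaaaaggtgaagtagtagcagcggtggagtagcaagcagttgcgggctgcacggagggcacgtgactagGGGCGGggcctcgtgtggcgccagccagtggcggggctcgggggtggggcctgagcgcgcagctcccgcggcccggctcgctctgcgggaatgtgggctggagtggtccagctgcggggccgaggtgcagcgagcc

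This window held 20 CpG dinucleotides and none of the other 5 motifs. Of the 10 genes, 8 had a RefSeq window, 11 windows in all, and St3gal1 and St3gal2 were the genes without one. A match of letters is a description of the window, not a binding site.

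St3gal5 makes GM3, the first sialylated ganglioside, from lactosylceramide, which is the step that the synthesis of asialo-GM1 bypasses. It was the second lowest of the 10 genes per kb in anti-PD-1 asGM1-positive cells and had 1.64, 2.03 and 2.06 CPM there, against 1.45, 2.18 and 2.88 CPM in anti-PD-1 asGM1-negative libraries. It had 4.82, 3.23 and 6.02 CPM in isotype asGM1-positive libraries, against 3.12, 2.54 and 3.24 CPM in isotype asGM1-negative libraries. The populations overlapped under both treatments, and no population difference passed: -0.18 ± 0.29 under anti-PD-1 (95% interval -0.82 to 0.46, edgeR adjusted p = 0.930) and 0.66 ± 0.29 under isotype (0.02 to 1.30, adjusted p = 0.375). Under isotype the overlap was narrow, at 3.23 CPM in asGM1-positive and 3.24 CPM in asGM1-negative libraries. The log2 ratios of the 3 pairs were 0.18, -0.10 and -0.48 under anti-PD-1 and 0.63, 0.35 and 0.89 under isotype. With the pair as a block the differences were -0.14 ± 0.22 and 0.62 ± 0.22, and neither passed (edgeR adjusted p = 0.843 and 0.168).

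St3gal6, which with St3gal4 sialylates type 2 chains and contributes to selectin ligands, went the other way from the 4 lower genes. It had 54.6, 83 and 95 CPM in anti-PD-1 asGM1-positive libraries, against 52.2, 62.3 and 88.0 CPM in anti-PD-1 asGM1-negative libraries. It had 72.1, 115 and 106 CPM in isotype asGM1-positive libraries, against 49.4, 75.0 and 61.4 CPM in isotype asGM1-negative libraries. The groups overlapped, yet each asGM1-positive library was above the asGM1-negative library of the same number, by log2 ratios of 0.07, 0.41 and 0.11 under anti-PD-1 and of 0.54, 0.62 and 0.79 under isotype. The isotype difference of 0.66 ± 0.26 did not pass without the block (edgeR adjusted p = 0.297) and passed with the pair as a block (0.65 ± 0.09, adjusted p = 0.00954). The averaged difference was 0.43 ± 0.18 (adjusted p = 0.259), and with the block 0.43 ± 0.06 (adjusted p = 0.00608). On the opposite strand St3gal6 overlaps Dcbld2, a protein-coding gene, and use of strand in counting was not stated. Dcbld2 did not pass between the populations (0.65 under anti-PD-1 and 0.04 under isotype, edgeR adjusted p = 0.564 and 0.985). Among the 4 lower genes, annotated genes that are not protein-coding overlap St6gal1 (BC106179), St3gal2 (Gm26816 and Gm26132) and St6galnac3 (A530083M17Rik and 1700015C17Rik among others). Such genes also overlap St3gal3, St3gal4, St3gal5 and St6galnac4. The part of any overlap in the counts was not tested.

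The remaining 4 genes did not pass between the populations under either treatment, and for most the interval of the difference was narrow. St3gal4 had 55.3 to 76.3 CPM in anti-PD-1 asGM1-positive and 57.8 to 72.4 CPM in anti-PD-1 asGM1-negative libraries, and 54.5 to 58.2 CPM in isotype asGM1-positive and 55.1 to 60.5 CPM in isotype asGM1-negative libraries. Its averaged log2 difference was -0.02 with a 95% interval of -0.21 to 0.17. St6galnac4, which makes disialylated core 1 chains, had 111 to 135 CPM in anti-PD-1 asGM1-positive and 111 to 132 CPM in anti-PD-1 asGM1-negative libraries, and 91.7 to 108 CPM in isotype asGM1-positive and 83.7 to 103 CPM in isotype asGM1-negative libraries (averaged difference 0.02, -0.16 to 0.20). St6galnac6, an enzyme of alpha-series gangliosides, had 22.4 to 26.1 CPM in anti-PD-1 asGM1-positive and 23.7 to 28.0 CPM in anti-PD-1 asGM1-negative libraries, and 15.0 to 20 CPM in isotype asGM1-positive and 17.7 to 20.9 CPM in isotype asGM1-negative libraries (averaged difference -0.09, -0.29 to 0.12). St3gal3, an enzyme of N-glycans and type 1 chains, was the most scattered, at 8.69 to 14.6 CPM in anti-PD-1 asGM1-positive and 9.06 to 13.8 CPM in anti-PD-1 asGM1-negative libraries, and 5.69 to 10.2 CPM in isotype asGM1-positive and 7.44 to 11 CPM in isotype asGM1-negative libraries (averaged difference -0.07, -0.48 to 0.34). These intervals leave room for small differences.

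**Figure D4:**
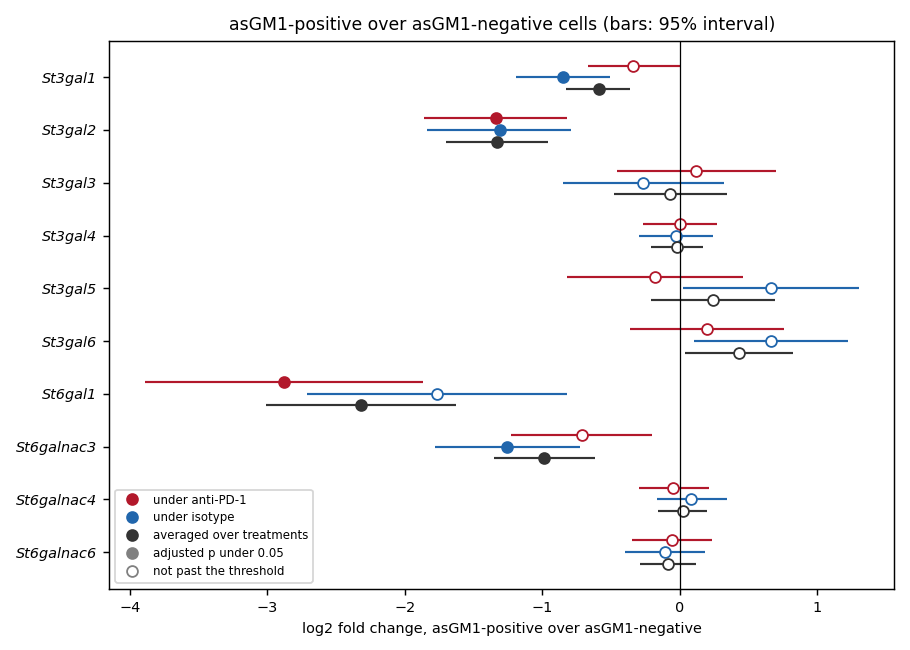
Log2 fold change of asGM1-positive over asGM1-negative cells under anti-PD-1 (red), under isotype (blue) and averaged over treatments (black), with 95% intervals; filled points had an edgeR adjusted p under 0.05. St6gal1, St3gal2, St6galnac3 and St3gal1 lie left of 0, with averaged values of -2.32, -1.33, -0.99 and -0.59, and the averaged values of the other 6 genes lie between -0.09 and 0.43.

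By treatment, 2 of 10 sialyltransferases were lower in asGM1-positive cells under anti-PD-1 (St6gal1 and St3gal2) and 0 were higher (3 of 10 at an unadjusted p under 0.05), beside 0.654% lower and 0.927% higher over all genes. Under isotype 3 of 10 were lower (St3gal1, St3gal2 and St6galnac3) and 0 higher (6 of 10 at an unadjusted p under 0.05), beside 0.943% and 0.364%. Over all 18657 genes tested, 2116 had an unadjusted edgeR p under 0.05 under anti-PD-1 and 2323 under isotype. With the pair as a block, 4 were lower and 1 was higher under isotype, beside 2.11% and 1.83% of all genes, and the same count held for the averaged comparison, beside 4.16% and 4.43%. Under anti-PD-1, the same 2 genes were lower with the block, beside 2.02% lower and 2.75% higher over all genes. The calls under isotype depended on single libraries: 0 of 10 passed without isotype asGM1-negative replicate 1 or 3 or with only the 6 isotype libraries in the fit, and 1 passed without isotype asGM1-negative replicate 2, isotype asGM1-positive replicate 2 or 3, or anti-PD-1 replicate 2 of both populations. Under anti-PD-1, 0 passed without asGM1-negative replicate 2 or replicate 2 of both populations, and St6gal1 alone passed when any other anti-PD-1 library was left out.

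Marker genes of other cells and states moved with the same comparison. Of 8 naive T cell markers, 3 were lower in asGM1-positive cells under anti-PD-1 and 7 under isotype. Of 10 plasmacytoid dendritic cell markers, 6 were lower under anti-PD-1 and 8 under isotype. All 10 summed to 949 to 1704 CPM in anti-PD-1 asGM1-positive, 1160 to 1367 CPM in anti-PD-1 asGM1-negative, 931 to 1441 CPM in isotype asGM1-positive and 1028 to 1779 CPM in isotype asGM1-negative libraries. Without Bst2, Ly6c2, Tcf4 and Runx2, which T cells also express, the sum of the other 6, chosen after seeing the data, was 0.331 to 1.24, 50.2 to 76.7, 0 to 1.76 and 98.2 to 171 CPM in the same order. Spib was at 0 in both asGM1-positive groups and Cox6a2 in the anti-PD-1 one. The 6 CD4 and regulatory T cell markers summed to 68.2 to 85.7, 125 to 174, 66.3 to 89.8 and 114 to 163 CPM in the same order, with 2 lower under anti-PD-1 and 1 under isotype. The 10 macrophage and monocyte markers summed to 182 to 318, 76.1 to 115, 218 to 307 and 71.9 to 83 CPM, with 7 higher in asGM1-positive cells under anti-PD-1 and 8 under isotype. The sums of the 5 NK cell markers overlapped between the groups, at 112 to 236, 126 to 191, 163 to 190 and 148 to 194 CPM. None of the 5 passed between populations under either treatment, and 1 was lower under anti-PD-1 in asGM1-positive cells. Single markers were less even: Klrb1c was at 0.834 to 4.85, 0.975 to 3.34, 14.8 to 22.1 and 4.82 to 9.16 CPM in the same order. The 4 tumour epithelium markers summed to at most 7.52 CPM in any library, with Krt19 at 0 in all. The part of these cells or states in the sialyltransferase differences was not tested.

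Between treatments, St6galnac3 had the largest increase. Its mean was 15.9 ± 4.35 CPM in anti-PD-1 asGM1-positive cells, against 5.25 ± 1.02 CPM in isotype asGM1-positive cells, a 3.03-fold difference (log2 1.60 ± 0.24, edgeR adjusted p = 0.00238). It was 26.0 ± 6.35 CPM in anti-PD-1 asGM1-negative cells, against 12.5 ± 1.52 CPM in isotype asGM1-negative cells, a 2.07-fold difference (1.05 ± 0.24, adjusted p = 0.0189). In both populations every anti-PD-1 library was above every isotype library. In asGM1-negative cells the call ended without isotype replicate 1 or 3, anti-PD-1 replicate 2 or 3, or anti-PD-1 replicate 2 of both populations (edgeR adjusted p from 0.0513 to 0.0838).

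St6gal1 fell under anti-PD-1 in both populations. Its mean was 2.31 ± 1.34 CPM in anti-PD-1 asGM1-positive cells, against 14.9 ± 5.77 CPM in isotype asGM1-positive cells (6.48-fold lower, log2 -2.70 ± 0.46, edgeR adjusted p = 0.00498). It was 16.9 ± 3.26 CPM in anti-PD-1 asGM1-negative cells, against 50.8 ± 11 CPM in isotype asGM1-negative cells (3.01-fold lower, -1.59 ± 0.43, adjusted p = 0.0422). No libraries overlapped between treatments within a population. The difference in asGM1-negative cells ended with no expression filter (edgeR adjusted p = 0.0600) and without 9 of the 13 libraries or library pairs left out in turn (0.0504 to 0.155), among them each isotype and each anti-PD-1 asGM1-negative library. The lower level in anti-PD-1 asGM1-positive cells passed under every alternative tried.

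St3gal5 also fell in asGM1-positive cells, to 1.91 ± 0.233 CPM under anti-PD-1, against 4.69 ± 1.40 CPM under isotype (2.46-fold lower, log2 -1.30 ± 0.30, edgeR adjusted p = 0.0228), with no overlap. In asGM1-negative cells it was at 2.17 ± 0.715 CPM under anti-PD-1 and 2.96 ± 0.372 CPM under isotype, and the difference of -0.45 ± 0.29 did not pass (adjusted p = 0.400). The call in asGM1-positive cells ended without isotype replicate 1 or 3, anti-PD-1 replicate 1 or 2, anti-PD-1 replicate 2 of both populations, or with the 6 libraries only (edgeR adjusted p from 0.0565 to 0.0993). St3gal1 rose in asGM1-positive cells, to 13.2 ± 1.58 CPM under anti-PD-1, against 7.70 ± 1.40 CPM under isotype (1.72-fold, log2 0.78 ± 0.15, edgeR adjusted p = 0.0113), a call that ended with the 6 libraries only (adjusted p = 0.0753). In asGM1-negative cells St3gal1 was at 16.7 ± 0.326 CPM under anti-PD-1 and 13.9 ± 0.628 CPM under isotype (0.26 ± 0.15, adjusted p = 0.341). St3gal2, its close relative, did not pass in either population (0.46 ± 0.24 in asGM1-positive and 0.49 ± 0.23 in asGM1-negative cells, adjusted p = 0.292 and 0.237). The averaged difference of St3gal2 was 0.48 ± 0.17 (adjusted p = 0.0680). It passed with DESeq2 (adjusted p = 0.0318), limma voom (0.0295) and, in edgeR, without isotype asGM1-positive replicate 1 (0.00413), where the difference in asGM1-positive cells also passed (0.0263).

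St6galnac4 and St6galnac6 rose by small, even amounts that passed when the populations were averaged. That average counts paired libraries of a treatment as separate, so its standard errors and p-values may be too small. St6galnac4 had 119 ± 13.7 CPM in anti-PD-1 asGM1-positive and 98.4 ± 8.81 CPM in isotype asGM1-positive cells, and 123 ± 11.4 CPM in anti-PD-1 asGM1-negative and 93.0 ± 9.62 CPM in isotype asGM1-negative cells (averaged log2 difference 0.34 ± 0.08, edgeR adjusted p = 0.0139). St6galnac6 had 24.3 ± 1.86 CPM in anti-PD-1 asGM1-positive and 17.8 ± 2.53 CPM in isotype asGM1-positive cells, and 25.3 ± 2.30 CPM in anti-PD-1 asGM1-negative and 19.2 ± 1.59 CPM in isotype asGM1-negative cells (0.42 ± 0.10, adjusted p = 0.00957). The anti-PD-1 libraries of both genes lay above the isotype libraries within each population. Within a population neither passed in the edgeR model of all 12 libraries: St6galnac4 differed by 0.28 ± 0.12 in asGM1-positive and 0.41 ± 0.12 in asGM1-negative cells (adjusted p = 0.193 and 0.0521), and St6galnac6 by 0.45 ± 0.13 and 0.40 ± 0.13 (adjusted p = 0.0721 and 0.0918). In asGM1-negative cells St6galnac4 passed with DESeq2 (adjusted p = 0.0128), limma voom (0.0499), a stricter expression filter (0.0406) and without 3 single libraries (0.0459 to 0.0498). St6galnac6 passed with DESeq2 in asGM1-positive and asGM1-negative cells (adjusted p = 0.0129 and 0.0262), and with the stricter filter in asGM1-positive cells (0.0466). St3gal3 (averaged 0.41 ± 0.19, adjusted p = 0.159), St3gal4 (0.22 ± 0.09, 0.106) and St3gal6 (-0.11 ± 0.18, 0.736) did not pass in any treatment comparison. In asGM1-positive cells their differences were 0.61, 0.23 and -0.34, and in asGM1-negative cells 0.22, 0.20 and 0.12. Without anti-PD-1 asGM1-positive replicate 1, the averaged difference of St3gal4 passed (edgeR adjusted p = 0.0398).

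**Figure D5:**
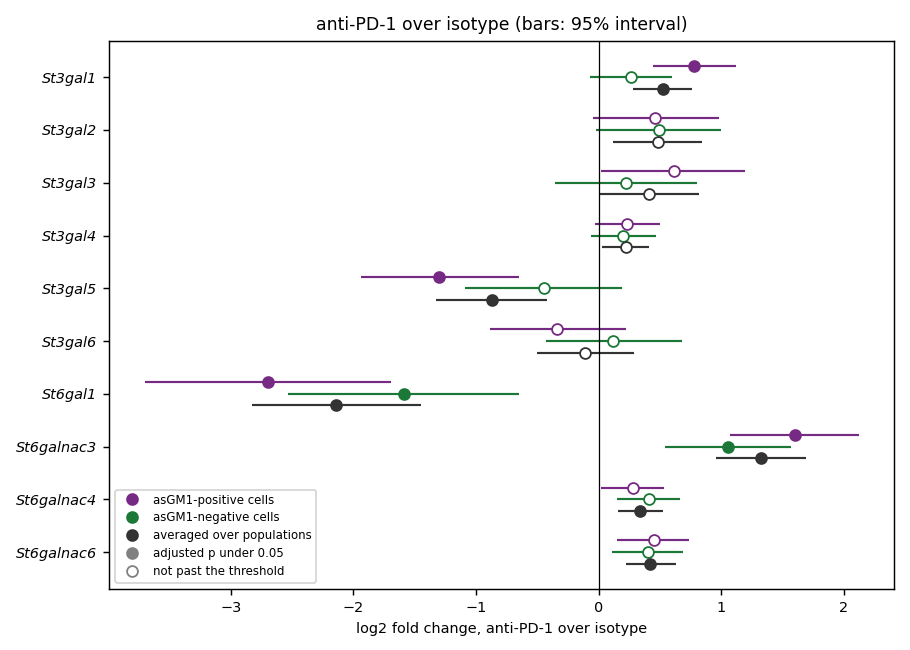
Log2 fold change of anti-PD-1 over isotype in asGM1-positive cells (purple), asGM1-negative cells (green) and averaged over populations (black), with 95% intervals; filled points had an edgeR adjusted p under 0.05. St6galnac3 lies farthest right, at 1.60 in asGM1-positive and 1.05 in asGM1-negative cells, and St6gal1 farthest left, at -2.70 and -1.59.

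In counts, 2 of 10 sialyltransferases were higher and 2 lower under anti-PD-1 in asGM1-positive cells, beside 3.72% and 3.01% of all genes. In asGM1-negative cells 1 was higher and 1 lower, beside 4.11% and 4.45%. The median log2 fold change of the 10 was 0.36 in asGM1-positive and 0.24 in asGM1-negative cells, beside -0.01 over all genes in each. In asGM1-negative cells DESeq2 called 4 of 10 and 2759 genes in all, against 2 of 10 and 1598 genes in edgeR, and 0 of 10 passed in edgeR without isotype replicate 1, anti-PD-1 replicate 2 or 3, or anti-PD-1 replicate 2 of both populations. There 1 passed without isotype replicate 2 or 3, anti-PD-1 replicate 1 or isotype asGM1-positive replicate 2. In the averaged comparison, 3 of 6 calls were left without anti-PD-1 replicate 2 of both populations, where St3gal5, St6galnac4 and St6galnac6 no longer passed (edgeR adjusted p = 0.0536, 0.0807 and 0.0667). Of the 8 naive T cell markers, 4 were higher under anti-PD-1 in asGM1-positive and 3 in asGM1-negative cells, and every anti-PD-1 library had less Hspa1a than every isotype library of the same population. The part of either in the treatment differences was not tested.

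For no sialyltransferase did the test of whether the population difference itself differed between treatments pass. In the interaction of population and treatment edgeR called 0 of 10, with 1 of 10 at an unadjusted p under 0.05, and DESeq2 and limma voom called 0 of 10 as well. Over all genes 0% passed in edgeR, with 1329 genes at an unadjusted p under 0.05. The gene with the small unadjusted p was St3gal1, whose population difference was less negative under anti-PD-1 by 0.52 ± 0.22 on the log2 scale (edgeR adjusted p = 0.662). The 95% interval of St6gal1 ran from -2.44 to 0.22 around -1.11, and that of St3gal2 from -0.76 to 0.70 around -0.03. With the pair as a block edgeR also called 0 of 10, with 4 of 10 at an unadjusted p under 0.05, beside 5 genes called and 2317 at an unadjusted p under 0.05 over all genes. The 4 were St3gal6 (-0.46 ± 0.13, adjusted p = 0.183), St6gal1 (-1.20 ± 0.37, adjusted p = 0.225), St3gal1 (0.52 ± 0.21, adjusted p = 0.355) and St3gal5 (-0.76 ± 0.31, adjusted p = 0.363). The 95% interval of St6gal1 was then -2.06 to -0.34. Without the block, the adjusted p-values of the genes other than St3gal1 were at least 0.739 in edgeR. A difference that passed under 1 treatment and not under the other is therefore not shown to differ between them.

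By root mean square difference of mean-centred log2(CPM + 0.5) over the 12 libraries, a description that mixes population and treatment, each of the 4 genes called between populations was set beside its 3 closest of all genes tested. St3gal1 was closest to St8sia4, Foxo1 and Pdcd4, each at 0.17, where its own spread was 0.42. St8sia4 is a sialyltransferase outside the 10, Foxo1 a transcription factor of quiescent T cells, and Pdcd4 an inhibitor of translation. St3gal2 was closest to Gm2682 (0.31), Gpm6b (0.32) and H2-Oa (0.32), with an own spread of 0.71. St6galnac3 was closest to Nfkbiz (0.23), Emb (0.27) and Ripor2 (0.30), with an own spread of 0.83. St6gal1 was closest to Tnfsf8 (CD30 ligand) at 0.62 and to Id3 and Tsc22d1 at 0.63 each, with an own spread of 1.62.

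Of the other 10 sialyltransferase genes of the mouse, 3 passed the expression filter. St6gal2, St6galnac1, St8sia2, St8sia3 and St8sia5 were at 0 in all 12 libraries. St6galnac5 and St8sia6 had few counts and were not tested. St8sia4, which builds polysialic acid, had 35.2, 29.6 and 32.1 CPM in anti-PD-1 asGM1-positive libraries, against 48.0, 43.6 and 45.4 CPM in anti-PD-1 asGM1-negative libraries. It had 20.9, 27.3 and 26.7 CPM in isotype asGM1-positive libraries, against 42.8, 38.2 and 43.9 CPM in isotype asGM1-negative libraries. It was lower in asGM1-positive cells under isotype (-0.74 ± 0.12, edgeR adjusted p = 0.0137) and averaged (-0.62 ± 0.09, adjusted p = 0.00222), with no overlap under either treatment. Under anti-PD-1 it did not pass (-0.50 ± 0.12, adjusted p = 0.0686). St8sia1, the GD3 synthase, averaged 0.902 ± 1.14 CPM in anti-PD-1 asGM1-positive, 3.32 ± 0.742 CPM in anti-PD-1 asGM1-negative, 0.839 ± 0.639 CPM in isotype asGM1-positive and 4.57 ± 0.684 CPM in isotype asGM1-negative cells and did not pass (averaged population difference -2.16 ± 0.57, adjusted p = 0.0647). St6galnac2, an O-glycan enzyme with 2 gene IDs of which 1 was tested, was lower under anti-PD-1 in asGM1-positive cells, at 1.34 ± 0.697 CPM, against 6.31 ± 2.51 CPM under isotype (-2.23 ± 0.47, edgeR adjusted p = 0.0150). Of the 3 tested, 1 was lower between populations under isotype and 0 under anti-PD-1, and 1 was lower between treatments in asGM1-positive and 0 in asGM1-negative cells.

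Genes that supply the donor sugar moved in a few cases. Of 9 tested, 0 passed between populations under anti-PD-1 and 1 was lower under isotype: Cmah, which hydroxylates CMP-Neu5Ac to CMP-Neu5Gc. Cmah had 14.3, 14 and 10.1 CPM in anti-PD-1 asGM1-positive libraries, against 15.9, 13.8 and 17.6 CPM in anti-PD-1 asGM1-negative libraries, which overlapped. It had 4.66, 5.20 and 5.13 CPM in isotype asGM1-positive libraries, against 11.6, 11.6 and 12.8 CPM in isotype asGM1-negative libraries, which did not (-1.27 ± 0.17, edgeR adjusted p = 0.00442). In asGM1-positive cells Cmah was higher under anti-PD-1 (1.36 ± 0.17, adjusted p = 6.06e-04). Cmas, which makes CMP-sialic acid, was higher under anti-PD-1 in both populations, at 112 ± 7.72 CPM, against 81.7 ± 5.28 CPM under isotype in asGM1-positive cells and 110 ± 5.02 CPM, against 84.0 ± 2.06 CPM in asGM1-negative cells (0.46 ± 0.08 and 0.39 ± 0.08, adjusted p = 0.00685 and 0.0149). Nans, the Neu5Ac phosphate synthase, was higher in asGM1-positive cells and lower under anti-PD-1 in the averaged comparisons (0.30 ± 0.06 and -0.24 ± 0.06), and Slc17a5, the lysosomal exporter of sialic acid, was higher under anti-PD-1 (averaged 0.52 ± 0.13). The sialidase list held Neu1, Neu2, Neu3, Neu4 and Ctsa, which encodes cathepsin A and not a sialidase. Of these 5 genes, 3 were tested: Neu1, Neu3 and Ctsa. Neu1, the lysosomal sialidase, was higher under anti-PD-1 in asGM1-negative cells, at 61.0 ± 8.29 CPM, against 38.1 ± 7.09 CPM under isotype (0.68 ± 0.16, adjusted p = 0.0215). None of the 3 passed between populations.

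Of 7 ganglio-series genes, 0 passed between populations under either treatment, with medians of 0.10 under anti-PD-1 and 0.09 under isotype. They include B4galnt1, the GM2 and asialo-GM2 synthase, at 1397 ± 103 CPM in anti-PD-1 asGM1-positive, 1298 ± 38.8 CPM in anti-PD-1 asGM1-negative, 1005 ± 130 CPM in isotype asGM1-positive and 1115 ± 212 CPM in isotype asGM1-negative cells. Under anti-PD-1, Ugcg, the glucosylceramide synthase, was higher (0.44 ± 0.10, edgeR adjusted p = 0.0233) and B4galt5, the lactosylceramide synthase, lower (-0.88 ± 0.17, adjusted p = 0.0103) in asGM1-negative cells. In the average over populations B4galnt1 (0.35 ± 0.09) and B4galt6, the second lactosylceramide synthase (1.41 ± 0.37), were higher too. B4galt6 was near the floor, at 0.135 to 1.96 CPM over all libraries, against 97.6 to 218 CPM for B4galt5. Of 10 O-glycan and polylactosamine genes, 0 passed between populations under either treatment. Under anti-PD-1, Galnt2, which starts O-glycans, and B4galt1, a galactosyltransferase of type 2 chains, were higher and Gcnt1, the core 2 branching enzyme, lower in both populations. Their log2 fold changes in asGM1-positive cells were 0.65 ± 0.12, 0.43 ± 0.10 and -0.77 ± 0.14, and in asGM1-negative cells 0.60 ± 0.12, 0.59 ± 0.10 and -0.55 ± 0.14. In the averaged comparisons Fut7, the fucosyltransferase of selectin ligands, was higher in asGM1-positive cells (0.25 ± 0.06) and lower under anti-PD-1 (-0.23 ± 0.06), and the sulfotransferase gene Chst2 was lower under anti-PD-1 (-0.43 ± 0.13).

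Of 9 genes for proteins that carry sialylated chains, 0 passed between populations under either treatment, and Cd44 was lower in asGM1-positive cells in the average (-0.23 ± 0.05, edgeR adjusted p = 0.0335). Under anti-PD-1, Cd28 was higher in both populations (1.12 ± 0.12 in asGM1-positive and 0.87 ± 0.12 in asGM1-negative cells). Selplg, the selectin ligand PSGL-1, was higher in asGM1-negative cells (0.39 ± 0.11), Cd8a lower in asGM1-positive cells (-0.48 ± 0.09) and Ptprc higher in the average (0.28 ± 0.08). Of 7 tested genes of Siglec lectins, which bind sialic acid, 1 was lower in asGM1-positive cells under anti-PD-1 and 2 under isotype. Siglech, a lectin of plasmacytoid dendritic cells, was lower under both, at 0.187 ± 0.264 CPM in anti-PD-1 asGM1-positive, 30.5 ± 4.97 CPM in anti-PD-1 asGM1-negative, 0.0786 ± 0.136 CPM in isotype asGM1-positive and 58.6 ± 12.5 CPM in isotype asGM1-negative cells. Siglecf was lower under isotype (-1.28 ± 0.27, adjusted p = 0.0463) and Cd33 in the average (-2.78 ± 0.65, adjusted p = 0.0379). Siglece was lower under anti-PD-1 in both populations (-3.02 ± 0.61 in asGM1-positive and -2.56 ± 0.60 in asGM1-negative cells), and Siglecf was higher in asGM1-positive cells (1.01 ± 0.27, adjusted p = 0.0486). Levels of Siglece and Cd33 were low, at 0.336 to 5.92 and 0 to 7.15 CPM over all libraries. Under anti-PD-1, Siglece averaged 0.557 ± 0.305 CPM in asGM1-positive and 0.502 ± 0.287 CPM in asGM1-negative cells, near the floor. Siglec genes are known mainly from myeloid cells, plasmacytoid dendritic cells and B cells, and the part of such cells in these values was not tested.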

How the data were processed

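RNA from 12 libraries, 3 for each of 4 groups, was analysed from 1 table of counts per gene deposited by the authors. HISAT2, StringTie and build mm39 are named per the submitters' processing notes; versions, settings, annotation, use of strand and the way of counting are not given in the sources used here. Groups and replicate numbers came from the labels. The 10 genes and all gene lists were chosen with earlier results of these data known. All 10 are named with values; of the lists, every gene that passed in any comparison and every other sialyltransferase tested; and for each of the 4 genes called between populations, the 3 genes closest over the 12 libraries.

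Counts were tested with edgeR 4.0.16 under R 4.3.3 by its quasi-likelihood F test. A single model held the 4 group means and all 12 libraries. Genes were kept by filterByExpr on the groups (18657 of 56941 genes) and scaled by TMM (factors 0.970 to 1.04). The model had 8 residual degrees of freedom. P-values were adjusted by Benjamini-Hochberg over all genes tested, and adjusted p-values come from edgeR where no tool stands beside them. Standard errors are the log2 fold change over the root of F. The scripts were tested on simulated counts.

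Libraries of 1 treatment and number deviated together: the correlation of their deviations from group means was 0.26 to 0.53 in 6 of 6 pairs, against -0.33 to 0.07 for other numbers of that treatment. The numbers therefore pair the populations within a treatment. They did not pair treatments (-0.24 to 0.11). No replicate pair agreed within sampling noise, with chi-square values over genes of 45.4 to 126 for each degree of freedom. Exon lengths came from GENCODE M21 for GRCm38 and promoter windows from RefSeq for GRCm38.p6, builds other than that of the counts, so they served for lengths and sequence only. DESeq2 1.42.0, limma 3.58.1 (voom), other scalings and filters, blocks and left-out libraries were tried as alternatives.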

Additional observations from a re-analysis of the deposited data

How the results depend on the processing

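With each choice changed in turn, 387 of the called log2 fold changes of the 10 genes over all contrasts and alternatives kept direction and call, 53 kept direction and lost the call and 0 changed sign. Of those not called, 981 stayed so, 22 passed and 37 changed sign. The number of genes called between populations under isotype was 3; it was 5 with the pair of equal number as a replicate block, 0 with the 6 libraries only and 0 to 4 with a library left out. Under anti-PD-1 it was 2, and 0 to 2 with a library left out. Between treatments in asGM1-negative cells it was 2, with 1 without an expression filter, 4 in DESeq2 and 0 to 3 with a library left out. In asGM1-positive cells it was 4, with 5 in DESeq2 and with a stricter filter, 2 with the 6 libraries only and 3 to 4 with a library left out. Averaged over populations it was 6, and 3 to 7 with a library left out. For the population difference averaged over treatments it was 4, and 3 to 4 with a library left out.

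Sign changes among differences that did not pass were as follows. Between populations under anti-PD-1, St3gal4 was 0.0077 with a stricter filter. With libraries left out, St3gal3 ran from -0.13 to 0.33, St3gal4 from -0.11 to 0.13, St3gal5 from -0.41 to 0.0635, St6galnac4 from -0.15 to 0.0163 and St6galnac6 from -0.12 to 0.0094. In the average over treatments, St6galnac4 was -0.0046 with upper quartile scaling, and with libraries left out St3gal3 ran from -0.20 to 0.0306, St3gal4 from -0.07 to 0.0474 and St6galnac4 from -0.0333 to 0.06. Between treatments in asGM1-negative cells St3gal6 ran from -0.11 to 0.29. In the interaction, St3gal2 was 0.0297 with the pair block, 0.0092 with the shared number as a block and 0.0626 in limma voom, and with libraries left out it ran from -0.22 to 0.35, St3gal4 from -0.0772 to 0.17 and St6galnac6 from -0.0601 to 0.14. The cause of these changes was not tested.

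The block could not be fitted for contrasts between treatments, and the fit of 6 libraries gives no averaged or interaction value. In treatment differences averaged over populations, paired libraries therefore counted as separate, and standard errors and p-values may be too small. The number shared by all 4 groups, used as a block, changed the call of St6gal1 under isotype and of St3gal6 in the average. Over all genes the calls ranged widely: 75 to 789 under isotype around 244, 16 to 891 under anti-PD-1 around 295, 280 to 1604 in the average around 670, and between treatments 604 to 2264 in asGM1-positive cells around 1255, 730 to 2759 in asGM1-negative cells around 1598 and 2108 to 4438 in the average around 3384; the interaction gave 0 in edgeR, 5 with the pair block and 136 in DESeq2. A lower count in a fit with fewer libraries has fewer samples by construction.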
